A study of Homo sapiens with 26 samples.

Results

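The genes described here are 53 genes of DNA replication and nucleotide supply, taken by gene symbol from a written list and followed through knockdown of 5 genes in cells of the 786-O line. This line comes from a human renal tumour of the clear cell type and has no working VHL, the tumour suppressor that destroys hypoxia-inducible factors. All 53 were listed in each of the 3 tables of values, among 12239 genes listed in at least 1 table, and all 53 passed the filter on low values there. By role they are 13 genes of origin licensing, 10 of helicase activation and the moving fork, 9 of the polymerases and primase, 8 of the sliding clamp, its loader and Okazaki fragment maturation, 3 of single-strand binding, 6 of nucleotide supply and 4 of chromatin at the fork and CDT1 turnover.

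The series concerns nuclear speckles, bodies of the nucleus rich in splicing and mRNA export factors. Poly(A) RNA was read from 26 libraries in 13 groups of 2, namely 10 groups that each received 1 siRNA and 3 groups that received a non-targeting control siRNA. The siRNAs were SART1 siRNA 4 and 6, DDX39A siRNA 1 and 4, SARNP siRNA 3 and 9, FIBP siRNA 6 and 7, and TMEM259 siRNA 5 and 6, the last target also being labelled C19orf6. All cells, controls included, were grown in RPMI with serum under atmospheric oxygen, transfected with DharmaFECT 1, split at 24 h and harvested at 48 h. SART1 has a table of its own, DDX39A and SARNP share the second, and FIBP and TMEM259 share the third, each with its own pair of control libraries. The siRNAs of 1 table, whichever their target, are therefore set against the same 2 control libraries, and all cells are of 1 line. Whether libraries of 1 group stem from separate cultures or transfections is stated nowhere, so p-values measure only the spread between them, which may be technical.

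Replication starts at sites marked by the origin recognition complex, onto which CDC6 and CDT1 load the MCM ring before S phase. CDC45 and the GINS complex turn the ring into the active helicase, polymerase alpha with primase lays down primers, polymerases epsilon and delta extend them on the clamp PCNA, and ribonucleotide reductase, thymidylate synthase and thymidine kinase supply the deoxynucleotides. Many of these genes are transcribed mainly as cells leave G1, from promoters bound by E2F transcription factors, so their mRNA level follows how many cells of a culture are entering or passing S phase. In bulk RNA, fewer cells in S phase and less mRNA per cell cannot be told apart.

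The promoters of many of these genes share letters that played no part in choosing the genes. Promoters of 250 bases before to 50 after the start were found for 47 of the 53 genes in RefSeq (build GRCh38.p14). At least 1 of the 4 E2F words searched on both strands, TTTCCCGC, TTTGGCGC, TTTCGCGC and TTTGCCGC, stood in a promoter of 24 of these 47 genes (51.1%), against 3.99% of the 27305 genes with a promoter in RefSeq and 6.76% of the 9392 of them that are also listed in the tables of values. The CCAAT box (letters CCAAT) stood in 30 of 47 genes (63.8%), against 43.8% of those listed genes, and the CHR word TTTGAA, known from promoters of mitotic genes, in 3 of 47 (6.38%), against 13.6%. A word is a run of letters, not a site shown to be bound, and its absence says only that these letters are not in the window. The promoters below, with E2F words in capitals, belong to a few genes picked from those whose mRNA changed in the comparisons that follow. Other genes that changed as much or more are not shown. MCM6 lies at chr2:135876394-135876693, minus strand, CDC6 at chr17:40287629-40287928, plus strand, POLA1 at chrX:24693668-24693967, plus strand, and LIG1 at chr19:48170295-48170594, minus strand. Each of the longer runs in MCM6 is a pair of overlapping words, 1 on each strand. RRM2, shown by 1 of its 2 promoters at chr2:10122489-10122788, plus strand, and CHAF1B at chr21:36385142-36385441, plus strand hold none of these E2F words.
MCM6: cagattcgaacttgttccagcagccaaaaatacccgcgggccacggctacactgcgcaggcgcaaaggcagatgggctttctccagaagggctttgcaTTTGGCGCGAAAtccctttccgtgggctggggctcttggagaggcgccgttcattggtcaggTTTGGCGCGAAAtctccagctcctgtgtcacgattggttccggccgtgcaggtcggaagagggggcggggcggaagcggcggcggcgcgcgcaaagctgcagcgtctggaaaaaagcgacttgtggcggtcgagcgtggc
CDC6: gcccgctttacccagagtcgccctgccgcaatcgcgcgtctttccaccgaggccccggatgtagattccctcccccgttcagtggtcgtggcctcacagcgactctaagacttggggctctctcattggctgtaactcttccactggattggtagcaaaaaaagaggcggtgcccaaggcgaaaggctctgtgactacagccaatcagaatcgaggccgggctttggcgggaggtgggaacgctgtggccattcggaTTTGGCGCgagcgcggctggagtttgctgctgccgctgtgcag
POLA1: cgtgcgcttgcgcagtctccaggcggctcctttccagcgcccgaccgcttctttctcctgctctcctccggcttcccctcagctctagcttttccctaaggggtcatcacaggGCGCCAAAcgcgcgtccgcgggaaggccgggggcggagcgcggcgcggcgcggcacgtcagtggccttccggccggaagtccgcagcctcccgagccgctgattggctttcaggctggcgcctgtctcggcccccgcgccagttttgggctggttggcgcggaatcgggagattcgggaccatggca
LIG1: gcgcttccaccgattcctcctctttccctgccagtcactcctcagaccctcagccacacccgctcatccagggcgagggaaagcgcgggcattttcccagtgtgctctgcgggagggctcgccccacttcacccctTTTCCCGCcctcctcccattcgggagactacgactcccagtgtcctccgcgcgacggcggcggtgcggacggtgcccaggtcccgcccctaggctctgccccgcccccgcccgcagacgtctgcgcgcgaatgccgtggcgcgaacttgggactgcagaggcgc
RRM2: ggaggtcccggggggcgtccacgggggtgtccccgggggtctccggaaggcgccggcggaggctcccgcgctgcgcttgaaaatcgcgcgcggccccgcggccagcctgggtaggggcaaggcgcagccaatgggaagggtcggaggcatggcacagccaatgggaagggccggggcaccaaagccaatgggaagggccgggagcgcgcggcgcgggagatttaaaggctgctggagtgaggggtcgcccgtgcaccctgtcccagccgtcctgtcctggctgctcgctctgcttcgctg
CHAF1B: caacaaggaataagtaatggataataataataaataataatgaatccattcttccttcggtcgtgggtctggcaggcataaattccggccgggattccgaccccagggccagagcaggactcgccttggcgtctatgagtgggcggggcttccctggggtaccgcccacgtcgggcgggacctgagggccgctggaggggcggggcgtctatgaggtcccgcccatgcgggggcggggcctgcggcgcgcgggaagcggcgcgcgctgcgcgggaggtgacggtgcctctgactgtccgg

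Genes with and without an E2F word in the promoter were then set side by side. Over the 10 siRNAs, 4 to 17 of the 24 genes with a word and 3 to 16 of the 23 without one were lower than in control cells. Of all genes tested, 10.03% to 30.46% were lower, depending on the siRNA. With SART1 siRNA 6 the counts were 17 of 24 and 16 of 23 (30.46% of all genes), and the median log2 differences -0.19 and -0.23. With FIBP siRNA 7 they were 15 of 24 and 9 of 23 (medians -0.19 and -0.11, 17.46% of all genes). With FIBP siRNA 6 they were 8 of 24 and 11 of 23 (-0.12 and -0.14, 11.82%). These counts are a description, and the difference between the genes with and without a word was not tested.

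Libraries held 21710821 to 26128173 reads on genes for SART1, 9959064 to 18086176 for DDX39A and SARNP with their controls, and 8966609 to 17018483 for FIBP and TMEM259 with theirs. The 53 genes were well covered, with POLE2 the lowest at 74 reads in a library of the DDX39A and SARNP table, and the median SD between libraries of a group was 0.031 to 0.036 on the log2 scale. The targeted mRNA fell with every siRNA, to 33.3% and 26.8% of control for SART1 siRNA 4 and 6, 14.0% and 16.5% for DDX39A siRNA 1 and 4, 13.5% and 8.48% for SARNP siRNA 3 and 9, 11.0% and 17.1% for FIBP siRNA 6 and 7, and 30.3% and 48.3% for TMEM259 siRNA 5 and 6. Some siRNAs also moved other targets. With SART1 siRNA 4 and 6, SARNP mRNA was at 168% and 181.3% of control and FIBP mRNA at 75.15% and 72.44%. FIBP mRNA was at 71.64% with TMEM259 siRNA 6, and at 120.7%, 120% and 124.8% with DDX39A siRNA 1, DDX39A siRNA 4 and SARNP siRNA 3. With TMEM259 siRNA 5, DDX39A and SARNP mRNA were at 80.73% and 83.39%. All 9 markers of 786-O looked up, PAX8 and EPAS1 among them, were listed in each table. Of 10 markers of other cell types, PTPRC, CD3E, PECAM1, CDH5, ALB, DES and MYH11 were not listed in any table, and CD68 and COL1A1 were listed in each, with LUM in 2 of the 3. In GENCODE 29, 20 of the 53 genes share exon sequence with another gene, among them MCM7 with AP4M1, RFC4 with EIF4A2, FEN1 with TMEM258, TYMS with ENOSF1 and RRM1 with its antisense RNA, all on the opposite strand. The library kit keeps strand, but whether it was used in counting is not stated. Reads of such pairs may therefore be mixed, or left out of both genes as ambiguous. In all, 10 of the 53 have pseudogenes named after them there (PCNA, RFC3, RFC5, POLD2, FEN1, RPA2, RRM2, TYMS, DUT and UNG). Reads could be shared with these, or left out as aligned more than once.

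With 9 of the 10 siRNAs, replication and nucleotide genes were lower than in control cells more often than genes at large, and genes that rose were few. The changes were modest: among genes called, the median size of the log2 difference was between 0.18 (FIBP siRNA 6) and 0.36 (DDX39A siRNA 4). Calls, here and below, are those of limma on log2 of the normalized count plus 1, with a p under 0.05 after Benjamini-Hochberg adjustment over all genes tested in the table. Every fold change below is a log2 difference, siRNA minus control, with the SE of that model and n = 2 libraries a group. Levels are normalized read counts, given for each library, and are comparable within a table only.

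After knockdown of SART1, a component of the spliceosome, most of the 53 genes were lower. By the test, 33 of the 53 genes (62.3%) were lower and 5 (9.43%) higher in SART1 siRNA 4 cells, against 28.22% and 29.49% of all genes tested, and the 53 genes had a median log2 difference of -0.22. With the same controls, 37 of the 53 genes (69.8%) were lower and 4 (7.55%) higher in SART1 siRNA 6 cells, against 30.46% and 32.49% of all genes tested, and the 53 genes had a median log2 difference of -0.21. Both SART1 siRNAs lowered 31 genes, where 19.98% of all genes were lower with both, and both raised 3, where 22.91% were. ORC6, RFC5 and RPA2 are those 3 genes. Without SART1 siRNA 6 replicate 2, and with quantile normalization, the count higher with SART1 siRNA 6 was 2. With SART1 siRNA 4 the count higher was 3 with quantile normalization and in DESeq2. The median with SART1 siRNA 6 was -0.32 with quantile normalization. For DDX39A, an RNA helicase of mRNA export, 36 of the 53 genes (67.9%) were lower and 2 (3.77%) higher in DDX39A siRNA 4 cells, against 23.75% and 25.25% of all genes tested, and the 53 genes had a median log2 difference of -0.23. The other siRNA did less, and 15 of the 53 genes (28.3%) were lower and 3 (5.66%) higher in DDX39A siRNA 1 cells, against 16.12% and 17.07% of all genes tested, and the 53 genes had a median log2 difference of -0.041. Both DDX39A siRNAs lowered 12 genes (6.37% of all genes) and raised 1, POLE (8.67% of all genes). That rise was lost without DDX39A siRNA 1 replicate 2, without DDX39A siRNA 4 replicate 1 and without control replicate 2, where the count was 0, and became 2 without control replicate 1. Without control replicate 2 the count lower with DDX39A siRNA 1 was 9, the count higher 1, and the count higher with DDX39A siRNA 4 was 0. The counts higher were 0 for DDX39A siRNA 1 without its replicate 2 and 1 for DDX39A siRNA 4 without its replicate 1.

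With knockdown of SARNP, an RNA-binding protein of mRNA export, 30 of the 53 genes (56.6%) were lower and 2 (3.77%) higher in SARNP siRNA 9 cells, against 29.38% and 29.04% of all genes tested, and the 53 genes had a median log2 difference of -0.18. The other SARNP siRNA gave no such excess, as 10 of the 53 genes (18.9%) were lower and 10 (18.9%) higher in SARNP siRNA 3 cells, against 21.01% and 20.33% of all genes tested, and the 53 genes had a median log2 difference of -0.016. With quantile normalization the counts for SARNP siRNA 3 were 8 and 13. Its count lower was 6 without SARNP siRNA 3 replicate 1, and its count higher was 6 without control replicate 1. The count higher with SARNP siRNA 9 was 1 without its replicate 2. Both SARNP siRNAs lowered 8 genes (7.15% of all genes), or 5 without SARNP siRNA 3 replicate 1. In limma both raised 0 of the 53 (7.17% of all genes), 2 at an unadjusted p below 0.05, and 0 in edgeR and in DESeq2. After knockdown of FIBP, which binds fibroblast growth factor 1, 26 of the 53 genes (49.1%) were lower and 3 (5.66%) higher in FIBP siRNA 7 cells, against 17.46% and 16.60% of all genes tested, and the 53 genes had a median log2 difference of -0.13. Likewise 20 of the 53 genes (37.7%) were lower and 1 (1.89%) higher in FIBP siRNA 6 cells, against 11.82% and 10.78% of all genes tested, and the 53 genes had a median log2 difference of -0.12. Both FIBP siRNAs lowered 14 genes (4.39% of all genes), or 8 without FIBP siRNA 6 replicate 1 and 9 without control replicate 1. For FIBP siRNA 6 alone the count lower was 12 without its replicate 1, 12 without control replicate 1 and 13 without control replicate 2, and its 1 higher gene, POLA1, was lost when any 1 of the 4 libraries was left out, where the count was 0. The count higher with FIBP siRNA 7 was 1 without control replicate 1. Both raised 0 of the 53 in limma (4.68% of all genes), also at an unadjusted p below 0.05, in edgeR and in DESeq2.

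TMEM259 encodes a membrane protein found in the endoplasmic reticulum, and with it knocked down 20 of the 53 genes (37.7%) were lower and 0 (0%) higher in TMEM259 siRNA 5 cells, against 11.98% and 10.83% of all genes tested, and the 53 genes had a median log2 difference of -0.13. Fewer changed with the other siRNA, for 10 of the 53 genes (18.9%) were lower and 0 (0%) higher in TMEM259 siRNA 6 cells, against 10.03% and 9.36% of all genes tested, and the 53 genes had a median log2 difference of -0.048. For TMEM259 siRNA 5 the count lower was 13 without its replicate 1, 11 without control replicate 1 and 13 in DESeq2, and for TMEM259 siRNA 6 it was 5 without its replicate 1 and 5 without control replicate 1. The median with TMEM259 siRNA 6 was -0.074 without its replicate 2. Both TMEM259 siRNAs lowered 8 genes (2.41% of all genes), and both raised 0 (2.56% of all genes). The 8 became 5 without TMEM259 siRNA 5 replicate 1, 3 without TMEM259 siRNA 6 replicate 1, 5 without TMEM259 siRNA 6 replicate 2, 2 without control replicate 1 and 4 without control replicate 2. The counts of 0 higher stood in limma, edgeR and DESeq2, and at an unadjusted p below 0.05, for each TMEM259 siRNA and for both.

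**Figure D1:**
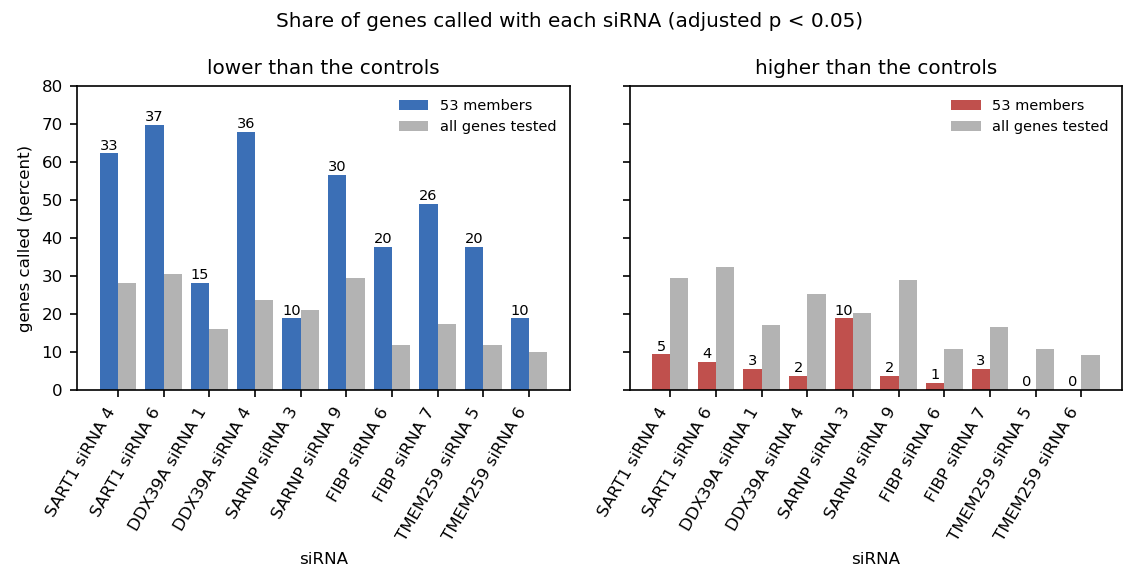
Percent of genes called lower (left panel) and higher (right panel) than the controls with each siRNA (x axis), for the 53 replication and nucleotide genes (coloured bars, with their number above) and for all genes tested (grey bars). The coloured bar for lower genes stands above the grey one for all siRNAs but SARNP siRNA 3, and the coloured bar for higher genes lies below the grey one throughout.

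The 3 tables have separate controls, and 29 of the 53 genes (54.7%) were lower with at least 1 siRNA in each of them, against 13.77% of the 11486 genes tested in all 3 tables. They include all of MCM2 to MCM7, and also CDC45, CDC6, PCNA, POLA1, RRM1, RRM2, TYMS, TK1 and both subunits of the chromatin assembly factor CAF-1. At the other end, ORC5, RFC5, PRIM2, POLE2 and RPA2 were lower with none of the 10 siRNAs. The share of all genes lower with none was not counted, so these 5 are named as a description only. These 5 genes are subunits of the origin recognition complex, the clamp loader, primase, polymerase epsilon and the single-strand binding protein RPA.

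**Figure D2:**
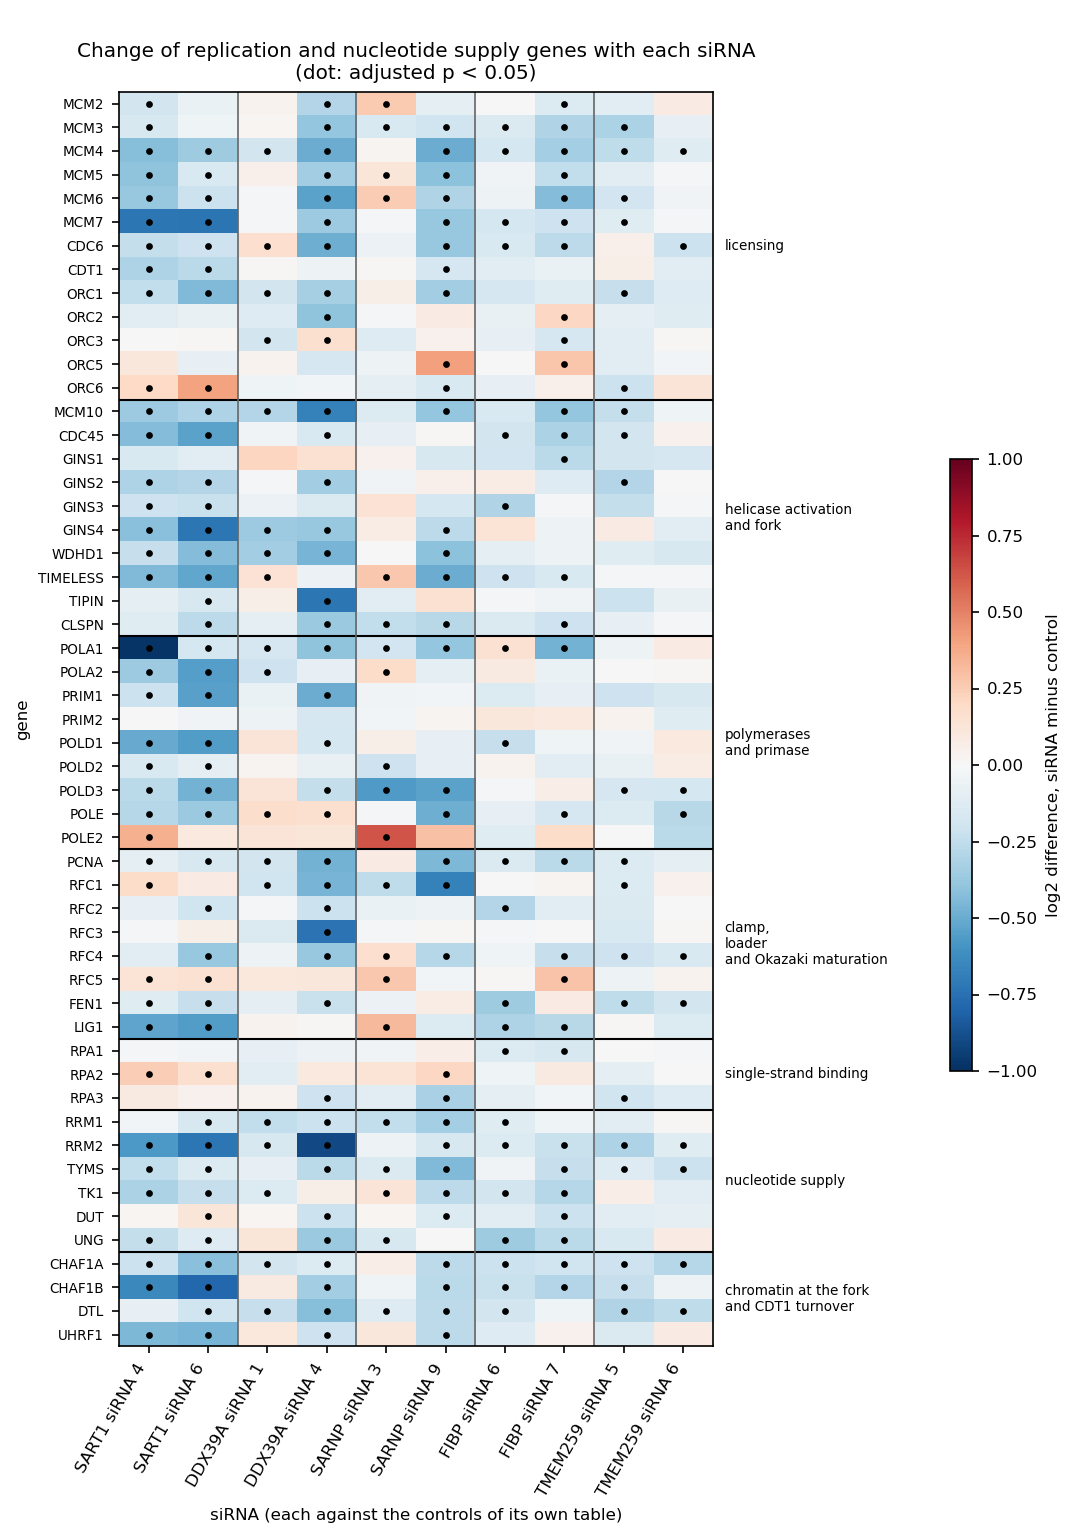
Log2 difference, siRNA minus the controls of its own table, of each of the 53 genes (rows, grouped by role) with each of the 10 siRNAs (columns), with a dot where the adjusted p is below 0.05. Blue (lower) with a dot marks most columns of the MCM4, MCM7, CHAF1A, CHAF1B, RRM2 and TYMS rows. POLA1 at -0.98 in SART1 siRNA 4 cells and RRM2 at -0.90 in DDX39A siRNA 4 cells are the strongest blue, while the RPA1, ORC3 and PRIM2 rows stay pale.

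Among the 13 licensing genes, the ring subunits MCM2 to MCM7 were lower with 3 to 9 of the 10 siRNAs each. The calls on ORC2, ORC3, ORC5 and ORC6 went both ways, 5 lower and 6 higher over the 10 siRNAs. Of all genes tested, 10.03% to 30.46% were lower and 9.36% to 32.49% higher, depending on the siRNA. All 6 ring genes were lower with SART1 siRNA 4 (median log2 difference -0.39), DDX39A siRNA 4 (-0.37) and FIBP siRNA 7 (-0.27), against 28.22%, 23.75% and 17.46% of all genes. With SARNP siRNA 9, 5 of 6 were lower (median -0.34, 29.38% of all genes), and with SART1 siRNA 6 and TMEM259 siRNA 5, 4 of 6 (30.46% and 11.98%). With SARNP siRNA 3, 1 was lower and 3 were higher (21.01% and 20.33%). MCM4 was the ring subunit called lower with the most siRNAs, 9 of the 10, from -0.50 with DDX39A siRNA 4 to -0.12 with TMEM259 siRNA 6. With SARNP siRNA 3 it differed by 0.028 (adjusted p = 0.61).

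MCM7 stood apart within the ring in the SART1 table. It had 10371 and 9856 in SART1 siRNA 4 cells and 10221 and 9933 in SART1 siRNA 6 cells, against 16782 and 16610 in control cells. All 4 knockdown libraries lay below both controls, with log2 differences of -0.72 ± 0.033 with siRNA 4 (adjusted p = 1.6e-14) and -0.73 ± 0.033 with siRNA 6 (adjusted p = 1.1e-14). The next lowest ring subunit there, MCM4, differed by -0.42 with siRNA 4 and -0.36 with siRNA 6. MCM2 and MCM3 were lower with SART1 siRNA 4 (-0.18 and -0.16), while with siRNA 6 they differed by -0.069 (adjusted p = 0.12) and -0.041 (adjusted p = 0.34). AP4M1 overlaps MCM7 on the opposite strand, and the effect of this overlap on the MCM7 values was not tested.

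The SARNP siRNAs moved ring subunits in opposite directions. MCM6 had 2987 and 3165 in SARNP siRNA 3 cells and 2122 and 2059 in SARNP siRNA 9 cells, against 2522 and 2631 in control cells. Both siRNA 3 libraries lay above the controls and both siRNA 9 libraries below them, with log2 differences of 0.26 ± 0.047 with siRNA 3 (adjusted p = 2.8e-05) and -0.30 ± 0.047 with siRNA 9 (adjusted p = 9.2e-07). MCM5 had 2868 and 3099 in SARNP siRNA 3 cells and 2126 and 2002 in SARNP siRNA 9 cells, against 2782 and 2699 in control cells. Its groups separated in the same order, by 0.12 ± 0.048 with siRNA 3 (adjusted p = 0.041) and -0.41 ± 0.048 with siRNA 9 (adjusted p = 3.5e-09), and the call with siRNA 3 was lost in DESeq2 (adjusted p = 0.1), without SARNP siRNA 3 replicate 2 (0.43), without control replicate 1 (0.072) and without control replicate 2 (0.22). MCM3 was the 1 ring gene lower with both SARNP siRNAs. It had 2749.8 and 2826 in SARNP siRNA 3 cells and 2671 and 2714 in SARNP siRNA 9 cells, against 3064 and 3136 in control cells, log2 differences of -0.15 ± 0.044 with siRNA 3 (adjusted p = 0.005) and -0.20 ± 0.044 with siRNA 9 (adjusted p = 0.00016). The siRNA 3 call of MCM3 was lost without SARNP siRNA 3 replicate 1 (adjusted p = 0.065) and without control replicate 2 (0.053).

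CDC6, which with CDT1 loads the ring onto origins, also split by siRNA, here for DDX39A. CDC6 had 1479 and 1564 in DDX39A siRNA 1 cells and 952 and 974 in DDX39A siRNA 4 cells, against 1328 and 1381 in control cells. It was above both controls with siRNA 1 and below both with siRNA 4, by 0.17 ± 0.053 with siRNA 1 (adjusted p = 0.014) and -0.49 ± 0.053 with siRNA 4 (adjusted p = 8.8e-10). The rise with siRNA 1 was lost in DESeq2 (adjusted p = 0.06), without DDX39A siRNA 1 replicate 2 (0.14) and without control replicate 1 (0.12). Elsewhere CDC6 was lower with both SART1 siRNAs (-0.24 and -0.21), SARNP siRNA 9 (-0.38), both FIBP siRNAs (-0.15 and -0.26) and TMEM259 siRNA 6 (-0.22). CDT1 was lower with both SART1 siRNAs (-0.31 with siRNA 4 and -0.27 with siRNA 6) and with SARNP siRNA 9 (-0.17).

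Of the origin recognition complex, ORC1, the subunit that comes and goes with the cell cycle, was lower with 6 siRNAs, from -0.44 with SART1 siRNA 6 to -0.19 with DDX39A siRNA 1. ORC6 rose after SART1 knockdown. It had 1516 and 1566 in SART1 siRNA 4 cells and 1715 and 1827 in SART1 siRNA 6 cells, against 1362 and 1316 in control cells. Every library of the knockdown lay above both controls, with log2 differences of 0.20 ± 0.049 with siRNA 4 (adjusted p = 0.00098) and 0.40 ± 0.049 with siRNA 6 (adjusted p = 1.5e-07). In other tables ORC6 was lower with SARNP siRNA 9 (-0.15) and TMEM259 siRNA 5 (-0.22). ORC3 had 662 and 643 in DDX39A siRNA 1 cells and 859.61 and 796 in DDX39A siRNA 4 cells, against 734 and 749.7 in control cells. It was below both controls with siRNA 1 and above both with siRNA 4, by -0.19 ± 0.062 with siRNA 1 (adjusted p = 0.019) and 0.16 ± 0.062 with siRNA 4 (adjusted p = 0.036). The siRNA 1 call was lost in DESeq2 (adjusted p = 0.12), without DDX39A siRNA 1 replicate 2 (0.095), without control replicate 1 (0.053) and without control replicate 2 (0.11). The siRNA 4 call was lost with quantile normalization (adjusted p = 0.051), in DESeq2 (0.13), without DDX39A siRNA 4 replicate 1 (0.31), without control replicate 1 (0.14) and without control replicate 2 (0.076). ORC3 was also lower with FIBP siRNA 7 (-0.17). ORC5 was higher with SARNP siRNA 9 (0.41 ± 0.078, adjusted p = 2.7e-05) and FIBP siRNA 7 (0.27 ± 0.067, adjusted p = 0.0011). ORC2 was lower with DDX39A siRNA 4 (-0.40 ± 0.061, adjusted p = 1e-06) and higher with FIBP siRNA 7 (0.21 ± 0.061, adjusted p = 0.0066).

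Factors that activate the helicase and travel with the fork were lower in SART1 knockdown cells, 7 of 10 with siRNA 4 (28.22% of all genes) and 9 of 10 with siRNA 6 (30.46%), and 7 of 10 fell with DDX39A siRNA 4 (23.75%). MCM10, needed to switch on the loaded helicase, was lower with both DDX39A siRNAs. It had 853 and 916 in DDX39A siRNA 1 cells and 694 and 665 in DDX39A siRNA 4 cells, against 1134 and 1038 in control cells. Every knockdown library lay below both controls, by -0.30 ± 0.060 with siRNA 1 (adjusted p = 0.00018) and -0.67 ± 0.060 with siRNA 4 (adjusted p = 7.3e-12). CDC45, a helicase subunit, had 846 and 892 in FIBP siRNA 6 cells and 791 and 796 in FIBP siRNA 7 cells, against 977 and 995 in control cells. It was below both controls in each, by -0.18 ± 0.059 with siRNA 6 (adjusted p = 0.021) and -0.31 ± 0.059 with siRNA 7 (adjusted p = 4.2e-05), the siRNA 6 call being lost in DESeq2 (adjusted p = 0.099), without FIBP siRNA 6 replicate 1 (0.19), without control replicate 1 (0.073) and without control replicate 2 (0.13). CDC45 was also lower with both SART1 siRNAs (-0.43 with siRNA 4 and -0.53 with siRNA 6).

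Within the GINS complex, the partner of CDC45 in the helicase, GINS4 was lower with both siRNAs of 2 targets, SART1 and DDX39A. With DDX39A knockdown it had 228 and 243 in DDX39A siRNA 1 cells and 229 and 234 in DDX39A siRNA 4 cells, against 298 and 306 in control cells. All knockdown libraries were below both controls, by -0.36 ± 0.092 with siRNA 1 (adjusted p = 0.0022) and -0.38 ± 0.092 with siRNA 4 (adjusted p = 0.0007). With SART1 siRNA 6 GINS4 differed by -0.73 ± 0.078 (adjusted p = 2.3e-08), and GINS2 and GINS3 were also lower with both SART1 siRNAs, at -0.31 and -0.21 with siRNA 4. GINS1 was called with FIBP siRNA 7 alone (-0.27 ± 0.101, adjusted p = 0.032). WDHD1, which links the helicase to polymerase alpha, had 622 and 625 in DDX39A siRNA 1 cells and 572 and 581 in DDX39A siRNA 4 cells, against 789 and 802 in control cells. It fell below both controls in each, by -0.35 ± 0.063 with siRNA 1 (adjusted p = 3.3e-05) and -0.46 ± 0.063 with siRNA 4 (adjusted p = 1.2e-07), and it was lower too with both SART1 siRNAs (-0.23 and -0.43) and SARNP siRNA 9 (-0.41).

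TIMELESS, TIPIN and CLSPN form the fork protection complex with its checkpoint mediator. TIMELESS showed the largest difference between SARNP siRNAs of the 53 genes. It had 1434 and 1465 in SARNP siRNA 3 cells and 902 and 808 in SARNP siRNA 9 cells, against 1167 and 1237 in control cells. The siRNA 3 libraries lay above both controls and the siRNA 9 libraries below them, by 0.27 ± 0.057 with siRNA 3 (adjusted p = 0.00017) and -0.49 ± 0.057 with siRNA 9 (adjusted p = 1.8e-09). TIPIN is its direct partner, and with SARNP siRNA 3 and 9 it differed by -0.11 and 0.15 (adjusted p = 0.27 and 0.095). TIPIN fell instead with DDX39A siRNA 4, where it had 251 and 262 in DDX39A siRNA 4 cells, against 420.11 and 429 in control cells, a log2 difference of -0.72 ± 0.079 (adjusted p = 9.1e-10). TIMELESS differed by -0.059 in the same cells (adjusted p = 0.41).

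CLSPN, the mediator, which links the stalled fork to the kinase CHK1, fell with both SARNP siRNAs. It had 1464 and 1391 in SARNP siRNA 3 cells and 1409.5 and 1385 in SARNP siRNA 9 cells, against 1682 and 1709 in control cells. Its knockdown libraries were all below both controls, by -0.25 ± 0.050 with siRNA 3 (adjusted p = 0.00012) and -0.28 ± 0.050 with siRNA 9 (adjusted p = 1.2e-05). TIMELESS was also lower with both SART1 siRNAs (-0.44 and -0.52) and both FIBP siRNAs (-0.21 and -0.16).

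Of the 9 polymerase and primase genes, 7 were lower with each SART1 siRNA (28.22% of all genes with siRNA 4 and 30.46% with siRNA 6), 4 with DDX39A siRNA 4 (23.75%), 3 with SARNP siRNA 3 (21.01%), 3 with SARNP siRNA 9 (29.38%) and at most 2 with any other siRNA. With SARNP siRNA 3, 2 of the 9 were higher (20.33% of all genes). POLA1, the catalytic subunit of polymerase alpha, had 977 and 985 in SART1 siRNA 4 cells and 1715 and 1708 in SART1 siRNA 6 cells, against 1898 and 1970.5 in control cells. All 4 knockdown libraries lay below both controls, the siRNA 4 libraries also below both siRNA 6 libraries, with log2 differences of -0.98 ± 0.047 with siRNA 4 (adjusted p = 3.6e-14) and -0.18 ± 0.047 with siRNA 6 (adjusted p = 0.0022). The change with SART1 siRNA 4 was the largest fall of the 53 genes in any comparison. POLA2, the regulatory subunit, and PRIM1, the catalytic primase subunit, had the opposite order, at -0.36 and -0.22 with siRNA 4 and -0.55 and -0.54 with siRNA 6. PRIM2, the large primase subunit, differed by -0.0057 and -0.035 (adjusted p = 0.94 and 0.64).

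POLA1 also split by siRNA for FIBP. There it had 1172 and 1120.5 in FIBP siRNA 6 cells and 765 and 725 in FIBP siRNA 7 cells, against 1009.8 and 1054 in control cells. The siRNA 6 libraries lay above both controls and the siRNA 7 libraries below them, by 0.15 ± 0.056 with siRNA 6 (adjusted p = 0.047) and -0.47 ± 0.056 with siRNA 7 (adjusted p = 5.1e-09). The rise with FIBP siRNA 6 was lost in DESeq2 (adjusted p = 0.14), without FIBP siRNA 6 replicate 1 (0.28), without FIBP siRNA 6 replicate 2 (0.057), without control replicate 1 (0.29) and without control replicate 2 (0.074). With SARNP knockdown POLA1 had 1049 and 1017 in SARNP siRNA 3 cells and 887 and 913 in SARNP siRNA 9 cells, against 1133 and 1225 in control cells. All 4 libraries were below both controls, by -0.19 ± 0.060 with siRNA 3 (adjusted p = 0.011) and -0.39 ± 0.060 with siRNA 9 (adjusted p = 8.9e-07), and the siRNA 3 call was lost without SARNP siRNA 3 replicate 2 (adjusted p = 0.086) and without control replicate 2 (0.17).

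Polymerase delta, the main lagging-strand polymerase, was lower with both SART1 siRNAs in the 3 subunits among the genes described here. POLD1, its catalytic subunit, had 1064 and 1071 in SART1 siRNA 4 cells and 1024 and 1028 in SART1 siRNA 6 cells, against 1506 and 1520 in control cells. Its knockdown libraries were all below both controls, by -0.50 ± 0.050 with siRNA 4 (adjusted p = 8.1e-09) and -0.56 ± 0.050 with siRNA 6 (adjusted p = 1.1e-09). POLD3, an accessory subunit, fell with SARNP knockdown, where it had 561 and 639 in SARNP siRNA 3 cells and 598 and 628 in SARNP siRNA 9 cells, against 871 and 901 in control cells. The groups did not overlap, and the log2 differences were -0.56 ± 0.066 with siRNA 3 (adjusted p = 6.9e-09) and -0.53 ± 0.066 with siRNA 9 (adjusted p = 1.1e-08). In the TMEM259 comparison POLD3 had 667 and 706 in TMEM259 siRNA 5 cells and 672 and 694 in TMEM259 siRNA 6 cells, against 790.44 and 753 in control cells. It was below both controls in each library, by -0.17 ± 0.062 with siRNA 5 (adjusted p = 0.043) and -0.18 ± 0.062 with siRNA 6 (adjusted p = 0.038). The siRNA 5 call was lost in DESeq2 (adjusted p = 0.18), without TMEM259 siRNA 5 replicate 1 (0.27), without TMEM259 siRNA 5 replicate 2 (0.053), without control replicate 1 (0.28) and without control replicate 2 (0.067). The siRNA 6 call was lost in DESeq2 (adjusted p = 0.17), without TMEM259 siRNA 6 replicate 1 (0.23), without TMEM259 siRNA 6 replicate 2 (0.078), without control replicate 1 (0.26) and without control replicate 2 (0.069). POLD2, which joins the subunits, was lower with both SART1 siRNAs (-0.15 and -0.10) and SARNP siRNA 3 (-0.21).

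POLE, the catalytic subunit of the leading-strand polymerase epsilon, was the 1 gene higher with both DDX39A siRNAs. It had 1633 and 1703 in DDX39A siRNA 1 cells and 1666 and 1630 in DDX39A siRNA 4 cells, against 1488 and 1459.9 in control cells. Each of the 4 siRNA libraries lay above both controls, by 0.18 ± 0.054 with siRNA 1 (adjusted p = 0.009) and 0.16 ± 0.054 with siRNA 4 (adjusted p = 0.012). The siRNA 1 call was lost without DDX39A siRNA 1 replicate 2 (adjusted p = 0.085) and without control replicate 2 (0.075), and the siRNA 4 call without DDX39A siRNA 4 replicate 1 (adjusted p = 0.077) and without control replicate 2 (0.085). POLE was lower with both SART1 siRNAs (-0.29 and -0.37), SARNP siRNA 9 (-0.49), FIBP siRNA 7 (-0.17) and TMEM259 siRNA 6 (-0.28). POLE2, its second subunit and the least covered of the 53 genes, was higher with SART1 siRNA 4 (0.36 ± 0.105, adjusted p = 0.0054) and with SARNP siRNA 3. In the SARNP case it had 145 and 137 in SARNP siRNA 3 cells, against 87 and 95 in control cells, a log2 difference of 0.62 ± 0.140 (adjusted p = 0.00041) and the largest rise of the 53 genes.

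**Figure D3:**
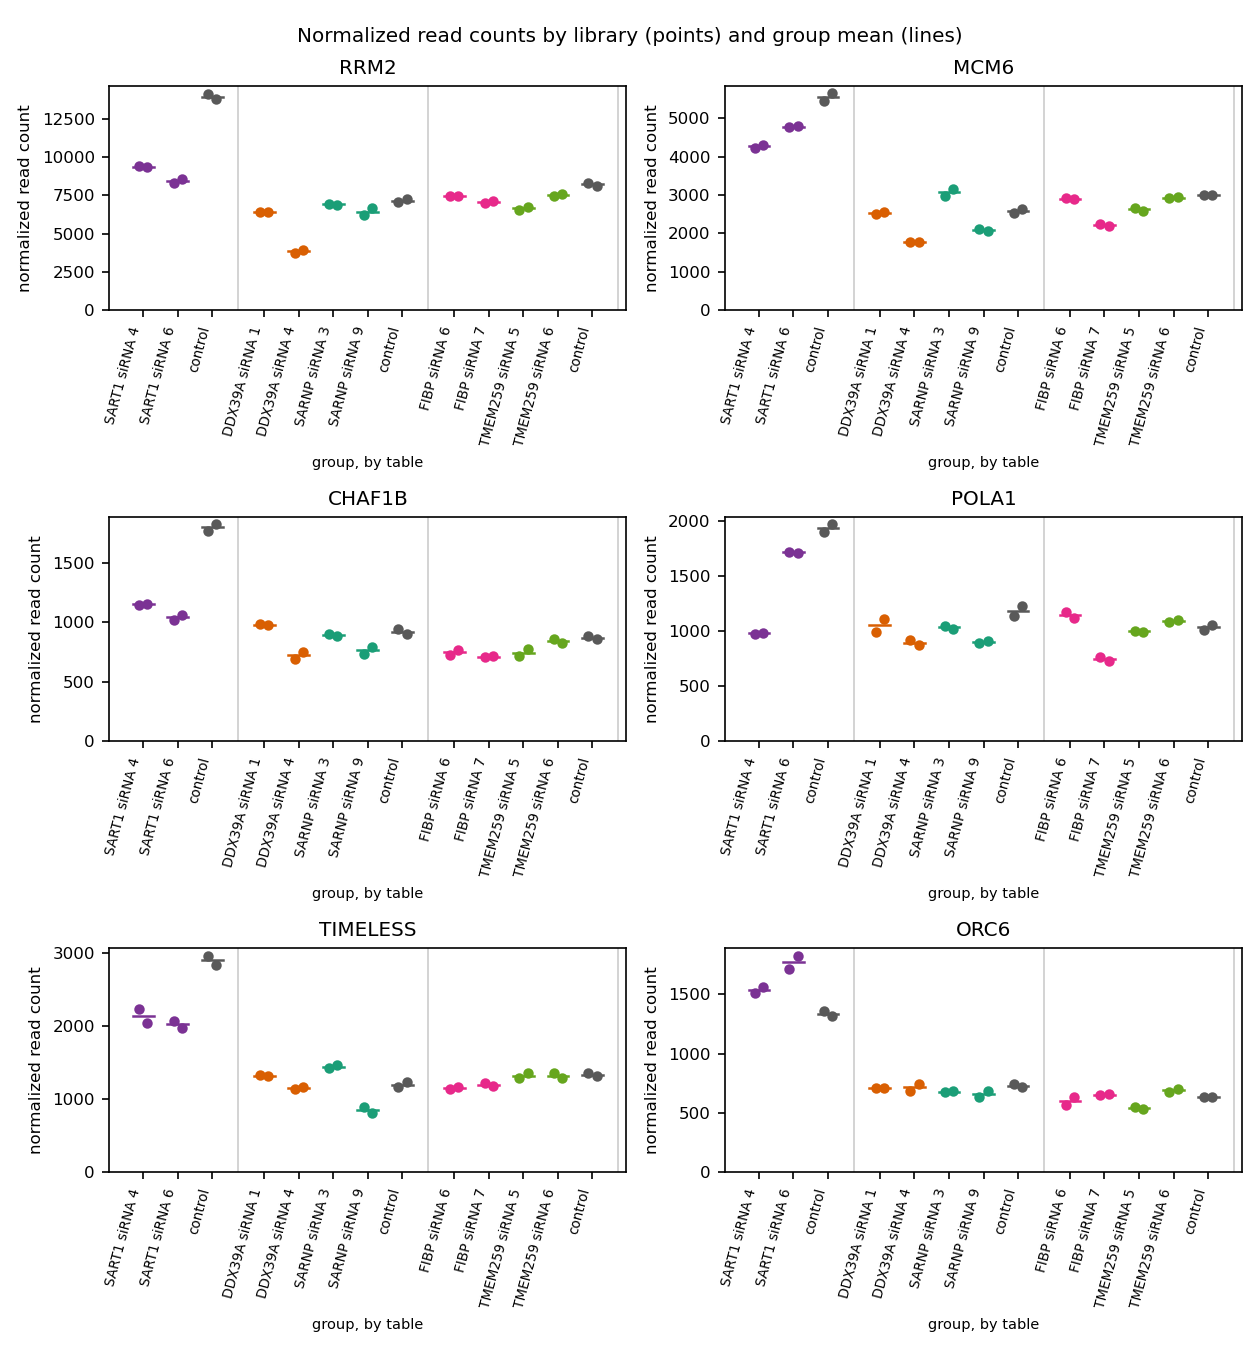
Normalized read counts (y axes, from 0) of 6 genes in each library (points), with the group mean (lines), for the 3 tables side by side with the controls at the right of each. RRM2 is lowest in DDX39A siRNA 4 cells within its table, POLA1 is lowest in SART1 siRNA 4 and in FIBP siRNA 7 cells within their tables, MCM6 and TIMELESS stand above the controls in SARNP siRNA 3 cells and below them in SARNP siRNA 9 cells, and ORC6 is above the controls in the SART1 table.

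At the clamp, PCNA, the ring that holds polymerases on DNA, was lower with 8 siRNAs, from -0.47 with DDX39A siRNA 4 to -0.099 with SART1 siRNA 4. Its loader RFC did not move as 1 complex. RFC1, the large subunit, had 2165 and 2270.1 in DDX39A siRNA 1 cells and 1868 and 1809 in DDX39A siRNA 4 cells, against 2502 and 2587 in control cells. It was below both controls in every DDX39A library, by -0.20 ± 0.048 with siRNA 1 (adjusted p = 0.0014) and -0.47 ± 0.048 with siRNA 4 (adjusted p = 2.6e-10). With SARNP knockdown RFC1 had 2151 and 2110.2 in SARNP siRNA 3 cells and 1548 and 1638 in SARNP siRNA 9 cells, against 2502 and 2587 in control cells. These libraries too were all below both controls, by -0.26 ± 0.048 with siRNA 3 (adjusted p = 4.6e-05) and -0.68 ± 0.048 with siRNA 9 (adjusted p = 9.3e-15). In the SART1 table the sign was the other way, with RFC1 higher with siRNA 4 (0.18 ± 0.038, adjusted p = 0.00028).

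RFC3, a small subunit, was called with DDX39A siRNA 4 alone. It had 541 and 535 in DDX39A siRNA 4 cells, against 879 and 914 in control cells, a log2 difference of -0.74 ± 0.060 (adjusted p = 6.5e-13). RFC4, another small subunit, had 1300.3 and 1236 in SARNP siRNA 3 cells and 931 and 914 in SARNP siRNA 9 cells, against 1115 and 1138 in control cells. It lay above both controls with siRNA 3 and below both with siRNA 9, by 0.17 ± 0.055 with siRNA 3 (adjusted p = 0.012) and -0.29 ± 0.055 with siRNA 9 (adjusted p = 2.8e-05), and the siRNA 3 call was lost in DESeq2 (adjusted p = 0.062), without SARNP siRNA 3 replicate 1 (0.14) and without control replicate 1 (0.08). With TMEM259 knockdown RFC4 had 1143 and 1189 in TMEM259 siRNA 5 cells and 1236 and 1183 in TMEM259 siRNA 6 cells, against 1379.6 and 1315 in control cells. All were below both controls, by -0.21 ± 0.054 with siRNA 5 (adjusted p = 0.0035) and -0.16 ± 0.054 with siRNA 6 (adjusted p = 0.036). The siRNA 5 call was lost without TMEM259 siRNA 5 replicate 1 (adjusted p = 0.058) and without control replicate 1 (0.085). The siRNA 6 call was lost in DESeq2 (adjusted p = 0.12), without TMEM259 siRNA 6 replicate 1 (0.069), without TMEM259 siRNA 6 replicate 2 (0.24), without control replicate 1 (0.28) and without control replicate 2 (0.059).

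RFC5, also a small subunit, was higher with both SART1 siRNAs. It had 1881 and 2058 in SART1 siRNA 4 cells and 1968 and 2013 in SART1 siRNA 6 cells, against 1740.2 and 1847 in control cells. The knockdown libraries were all above both controls, by 0.13 ± 0.049 with siRNA 4 (adjusted p = 0.021) and 0.15 ± 0.049 with siRNA 6 (adjusted p = 0.0096). The siRNA 4 call was lost with quantile normalization (adjusted p = 0.17), in DESeq2 (0.079), without SART1 siRNA 4 replicate 2 (0.28) and without control replicate 1 (0.21). The siRNA 6 call was lost with quantile normalization (adjusted p = 0.13), without SART1 siRNA 6 replicate 2 (0.076) and without control replicate 1 (0.13). RFC5 was higher too with SARNP siRNA 3 (0.27) and FIBP siRNA 7 (0.29). RFC2, the last small subunit, was lower with SART1 siRNA 6 (-0.20), DDX39A siRNA 4 (-0.22) and FIBP siRNA 6 (-0.29).

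LIG1, the ligase that joins Okazaki fragments, fell with SART1 and FIBP knockdown. In the SART1 table it had 1108 and 1073 in SART1 siRNA 4 cells and 1067 and 1072 in SART1 siRNA 6 cells, against 1549 and 1599 in control cells. All 4 knockdown libraries were below both controls, by -0.53 ± 0.050 with siRNA 4 (adjusted p = 4e-09) and -0.56 ± 0.050 with siRNA 6 (adjusted p = 1.3e-09). In the FIBP comparison it had 595 and 720.25 in FIBP siRNA 6 cells and 671 and 667 in FIBP siRNA 7 cells, against 786 and 836 in control cells. These also lay below both controls, by -0.31 ± 0.070 with siRNA 6 (adjusted p = 0.00083) and -0.28 ± 0.070 with siRNA 7 (adjusted p = 0.0016), and the siRNA 6 call was lost without FIBP siRNA 6 replicate 1 (adjusted p = 0.15). With SARNP siRNA 3 LIG1 was higher (0.32 ± 0.063, adjusted p = 6.3e-05). FEN1, the flap nuclease that trims the fragments, had 1392 and 1419 in TMEM259 siRNA 5 cells and 1466 and 1481 in TMEM259 siRNA 6 cells, against 1703 and 1649 in control cells. It was below both controls in each, by -0.25 ± 0.050 with siRNA 5 (adjusted p = 0.00016) and -0.19 ± 0.050 with siRNA 6 (adjusted p = 0.0062), the siRNA 6 call being lost without TMEM259 siRNA 6 replicate 1 (adjusted p = 0.064) and without control replicate 1 (0.092). FEN1 shares exon sequence with TMEM258 and FADS2.

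RPA, which coats single-stranded DNA at the fork, had 5 calls lower and 3 higher over its 3 subunits and 10 siRNAs. Of all genes tested, 10.03% to 30.46% were lower and 9.36% to 32.49% higher, depending on the siRNA. RPA2, the middle subunit, rose with SART1 knockdown, where it had 2692 and 2650.2 in SART1 siRNA 4 cells and 2538 and 2510 in SART1 siRNA 6 cells, against 2247 and 2266 in control cells. All 4 knockdown libraries lay above both controls, by 0.24 ± 0.040 with siRNA 4 (adjusted p = 1.6e-05) and 0.16 ± 0.040 with siRNA 6 (adjusted p = 0.0013), and the siRNA 6 call was lost with quantile normalization (log2 difference 0.066, adjusted p = 0.16). RPA1, the large subunit, was lower with the FIBP siRNAs (-0.14 and -0.16) and with no other. RPA3, the smallest, was lower with DDX39A siRNA 4 (-0.21), SARNP siRNA 9 (-0.32) and TMEM259 siRNA 5 (-0.20).

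Of the 6 genes of nucleotide supply, 5 were lower with SART1 siRNA 6, DDX39A siRNA 4, SARNP siRNA 9 and FIBP siRNA 7 (30.46%, 23.75%, 29.38% and 17.46% of all genes), and 4 with SART1 siRNA 4 and FIBP siRNA 6 (28.22% and 11.82%). The counts were 3 with DDX39A siRNA 1 and SARNP siRNA 3 (16.12% and 21.01%), and 2 with each TMEM259 siRNA (11.98% with siRNA 5 and 10.03% with siRNA 6). With SART1 siRNA 6 and SARNP siRNA 3, 1 of the 6 was higher (32.49% and 20.33% of all genes). RRM2, the regulatory subunit of ribonucleotide reductase, was lower with 9 of the 10. In the SART1 table RRM2 had 9409 and 9325 in SART1 siRNA 4 cells and 8337 and 8560.4 in SART1 siRNA 6 cells, against 14121 and 13780 in control cells. All 4 knockdown libraries were below both controls, by -0.57 ± 0.032 with siRNA 4 (adjusted p = 4.2e-13) and -0.72 ± 0.032 with siRNA 6 (adjusted p = 8e-15). With DDX39A knockdown it had 6417 and 6395 in DDX39A siRNA 1 cells and 3718 and 3966 in DDX39A siRNA 4 cells, against 7095 and 7238 in control cells. Both siRNAs took it below both controls, with siRNA 4 also below both siRNA 1 libraries, by -0.16 ± 0.043 with siRNA 1 (adjusted p = 0.0034) and -0.90 ± 0.043 with siRNA 4 (adjusted p = 1.9e-19). It was lower as well with SARNP siRNA 9 (-0.16), FIBP siRNA 6 and 7 (-0.14 and -0.22) and TMEM259 siRNA 5 and 6 (-0.31 and -0.12), and with SARNP siRNA 3 it differed by -0.051 (adjusted p = 0.37).

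RRM1, the catalytic subunit of the same enzyme, was lower with all 4 siRNAs of the DDX39A and SARNP table. It had 2986 and 3125 in DDX39A siRNA 1 cells and 3139 and 3088 in DDX39A siRNA 4 cells, against 3524 and 3713 in control cells. All were below both controls, by -0.24 ± 0.047 with siRNA 1 (adjusted p = 7.5e-05) and -0.22 ± 0.047 with siRNA 4 (adjusted p = 0.00019). In the same table it had 3122 and 2975 in SARNP siRNA 3 cells and 2769 and 2959 in SARNP siRNA 9 cells, against the same controls, by -0.25 ± 0.047 with siRNA 3 (adjusted p = 4.3e-05) and -0.34 ± 0.047 with siRNA 9 (adjusted p = 9.5e-08). In DDX39A siRNA 4 cells the log2 difference of RRM2 was -0.90 and that of RRM1 -0.22, and in SARNP siRNA 3 cells RRM1 fell and RRM2 did not pass the test.

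TYMS, the thymidylate synthase that makes dTMP, was lower with 8 siRNAs, most with SARNP siRNA 9 (-0.44 ± 0.044, adjusted p = 9.4e-11). With TMEM259 knockdown it had 4392 and 4306 in TMEM259 siRNA 5 cells and 4042 and 4156 in TMEM259 siRNA 6 cells, against 4755 and 4736 in control cells. The groups did not overlap, and the log2 differences were -0.13 ± 0.038 with siRNA 5 (adjusted p = 0.013) and -0.21 ± 0.038 with siRNA 6 (adjusted p = 5.6e-05). The siRNA 5 call was lost with quantile normalization (adjusted p = 0.098), without TMEM259 siRNA 5 replicate 2 (0.1), without control replicate 1 (0.088) and without control replicate 2 (0.062). TK1, the salvage thymidine kinase, had 3167 and 3395 in SARNP siRNA 3 cells and 2533 and 2473 in SARNP siRNA 9 cells, against 3009 and 2989 in control cells. It was above both controls with siRNA 3 and below both with siRNA 9, by 0.13 ± 0.050 with siRNA 3 (adjusted p = 0.035) and -0.26 ± 0.050 with siRNA 9 (adjusted p = 2.7e-05), and the siRNA 3 call was lost in DESeq2 (adjusted p = 0.093), without SARNP siRNA 3 replicate 2 (0.35), without control replicate 1 (0.11) and without control replicate 2 (0.14). With FIBP knockdown TK1 had 3053 and 3167 in FIBP siRNA 6 cells and 2956 and 2846 in FIBP siRNA 7 cells, against 3568 and 3499 in control cells. All 4 were below both controls, by -0.18 ± 0.041 with siRNA 6 (adjusted p = 0.00055) and -0.28 ± 0.041 with siRNA 7 (adjusted p = 2.5e-07).

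UNG and DUT act against uracil in DNA, UNG by cutting it out and DUT by destroying dUTP. UNG had 768 and 841 in FIBP siRNA 6 cells and 872 and 834 in FIBP siRNA 7 cells, against 1026 and 1036 in control cells. All knockdown libraries were below both controls, by -0.36 ± 0.058 with siRNA 6 (adjusted p = 5.9e-06) and -0.27 ± 0.058 with siRNA 7 (adjusted p = 0.00023). It was lower as well with both SART1 siRNAs (-0.24 and -0.13), DDX39A siRNA 4 (-0.37) and SARNP siRNA 3 (-0.16). DUT was lower with DDX39A siRNA 4 (-0.22), SARNP siRNA 9 (-0.14) and FIBP siRNA 7 (-0.22) and higher with SART1 siRNA 6 (0.12).

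CAF-1, which deposits histones behind the fork, was lower in both subunits with 7 of the 10 siRNAs. CHAF1B, its middle subunit, had 1149.7 and 1157 in SART1 siRNA 4 cells and 1023 and 1060.4 in SART1 siRNA 6 cells, against 1769.7 and 1829 in control cells. The 4 libraries all lay below both controls, by -0.64 ± 0.049 with siRNA 4 (adjusted p = 1.2e-10) and -0.79 ± 0.049 with siRNA 6 (adjusted p = 3.1e-12), the lowest value of the 53 genes with SART1 siRNA 6. In the FIBP comparison CHAF1B had 729 and 769 in FIBP siRNA 6 cells and 709.67 and 714 in FIBP siRNA 7 cells, against 885 and 860.23 in control cells. It was below both controls in each, by -0.22 ± 0.062 with siRNA 6 (adjusted p = 0.0069) and -0.29 ± 0.062 with siRNA 7 (adjusted p = 0.00021), with the siRNA 6 call lost without FIBP siRNA 6 replicate 1 (adjusted p = 0.1) and without control replicate 1 (0.08).

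CHAF1A, the large subunit of CAF-1, was lower with 9 siRNAs. It had 1107 and 1213 in FIBP siRNA 6 cells and 1186 and 1161 in FIBP siRNA 7 cells, against 1319 and 1372 in control cells. Every knockdown library was below both controls, by -0.21 ± 0.055 with siRNA 6 (adjusted p = 0.0028) and -0.20 ± 0.055 with siRNA 7 (adjusted p = 0.0041). For TMEM259 the values were 1142 and 1194 in TMEM259 siRNA 5 cells and 1099 and 1114 in TMEM259 siRNA 6 cells, against the same controls, by -0.20 ± 0.055 with siRNA 5 (adjusted p = 0.0048) and -0.28 ± 0.055 with siRNA 6 (adjusted p = 0.00016). The FIBP siRNA 6 call was lost without FIBP siRNA 6 replicate 1 (adjusted p = 0.12) and without control replicate 2 (0.058), the FIBP siRNA 7 call without control replicate 2 (adjusted p = 0.067), and the TMEM259 siRNA 5 call without TMEM259 siRNA 5 replicate 1 (adjusted p = 0.075) and without control replicate 2 (0.076).

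DTL, the substrate receptor of the ubiquitin ligase that destroys CDT1 in S phase, had 1596 and 1574 in DDX39A siRNA 1 cells and 1377 and 1389 in DDX39A siRNA 4 cells, against 1806 and 1909.5 in control cells. All were below both controls, by -0.23 ± 0.050 with siRNA 1 (adjusted p = 0.00046) and -0.42 ± 0.050 with siRNA 4 (adjusted p = 5.5e-09). With TMEM259 knockdown DTL had 1242 and 1221 in TMEM259 siRNA 5 cells and 1252 and 1295 in TMEM259 siRNA 6 cells, against 1511 and 1527 in control cells. It was again below both controls throughout, by -0.30 ± 0.052 with siRNA 5 (adjusted p = 2.1e-05) and -0.25 ± 0.052 with siRNA 6 (adjusted p = 0.00035). UHRF1, which reads hemimethylated DNA behind the fork, had 1704 and 1644 in SART1 siRNA 4 cells and 1744 and 1569 in SART1 siRNA 6 cells, against 2316 and 2251 in control cells. Its 4 knockdown libraries were below both controls, by -0.45 ± 0.050 with siRNA 4 (adjusted p = 4.9e-08) and -0.46 ± 0.050 with siRNA 6 (adjusted p = 2.1e-08). UHRF1 was lower also with DDX39A siRNA 4 (-0.21) and SARNP siRNA 9 (-0.26).

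**Figure D4:**
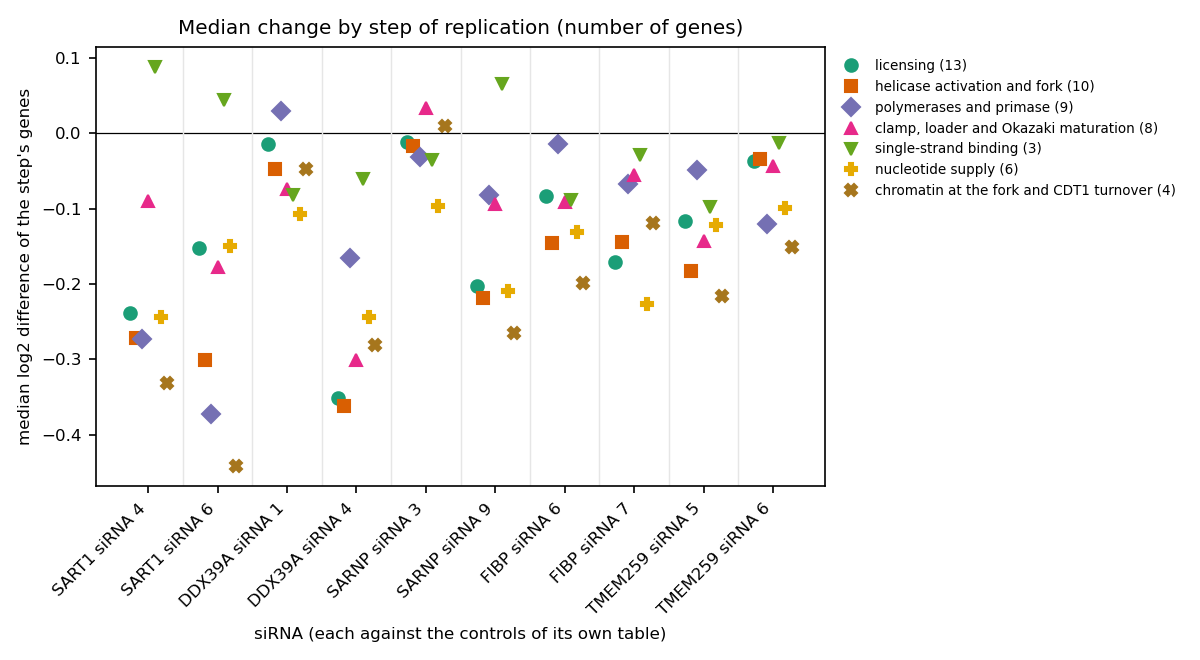
Median log2 difference, siRNA minus control (y axis), of the genes of each of the 7 roles (symbols, with the number of genes in the legend) for each siRNA (x axis). Single-strand binding lies nearest to or above 0 for SART1 and SARNP siRNA 9, chromatin genes reach -0.44 with SART1 siRNA 6, and all roles but single-strand binding lie below -0.15 with DDX39A siRNA 4.

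Because both siRNAs of a target lower the same mRNA, the difference between them was tested directly. For DDX39A, 32 of the 53 genes were lower with siRNA 4 than with siRNA 1 and 3 were higher. That is 35 of the 53 either way, against 50.57% of all genes. How many of all genes differed in each direction was not counted, here or below. TIPIN differed most, by -0.78 ± 0.079 (adjusted p = 1.3e-10), then RRM2 by -0.74 ± 0.043 (adjusted p = 6.2e-17), CDC6 by -0.66 ± 0.053 (adjusted p = 4.8e-13) and RFC3 by -0.59 ± 0.060 (adjusted p = 1.4e-10). For SARNP, 32 were lower with siRNA 9 than with siRNA 3 and 7 were higher, 39 either way, while 64.14% of all genes differed. TIMELESS led, by -0.76 ± 0.057 (adjusted p = 1.3e-14), and ORC5 went the other way, by 0.46 ± 0.078 (adjusted p = 3.5e-06). The remaining DDX39A mRNA was 14.0% of control with siRNA 1 and 16.5% with siRNA 4, and the remaining SARNP mRNA 13.5% with siRNA 3 and 8.48% with siRNA 9.

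For the other targets the differences were fewer or went both ways. With SART1 siRNA 4, 7 genes were lower and 17 higher than with siRNA 6 (38.51% of all genes differed), POLA1 at -0.80 ± 0.047 (adjusted p = 2.1e-12) and PRIM1 at 0.32 ± 0.070 (adjusted p = 0.00073) being the extremes. With FIBP siRNA 7, 13 were lower and 9 higher than with siRNA 6 (35.66% of all genes), with POLA1 at -0.62 ± 0.056 (adjusted p = 2.1e-12) and FEN1 at 0.44 ± 0.050 (adjusted p = 1.2e-09). With TMEM259 siRNA 5, 18 were lower and 4 higher than with siRNA 6 (32.09% of all genes), with ORC6 at -0.34 ± 0.068 (adjusted p = 8.2e-05) and CDC6 at 0.27 ± 0.053 (adjusted p = 8.1e-05). TMEM259 mRNA was at 30.3% of control with siRNA 5 and 48.3% with siRNA 6.

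**Figure D5:**
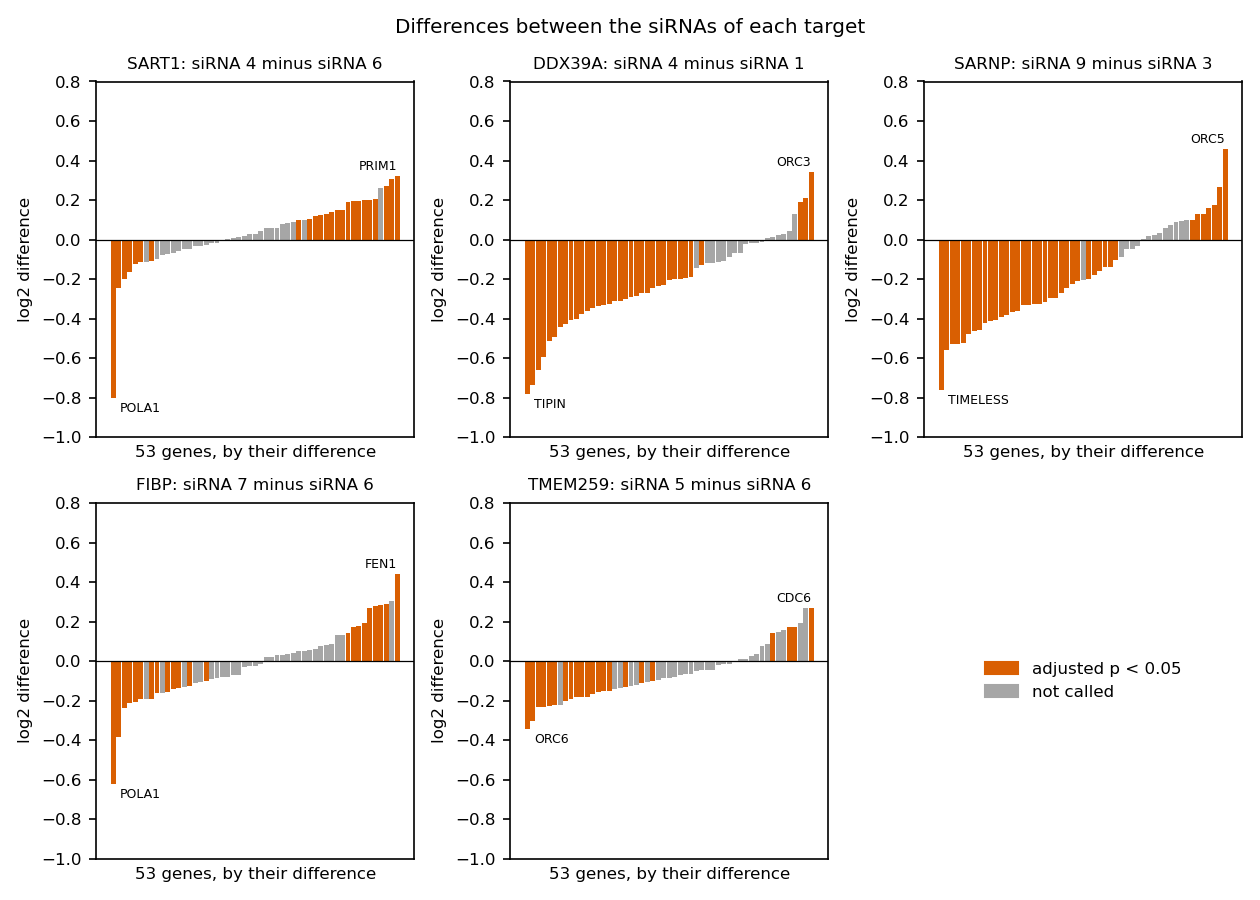
Log2 difference between the siRNAs of each target (y axis) for the 53 genes, ordered by that difference (x axis), with orange bars where the adjusted p is below 0.05 and the gene at each end named. The DDX39A and SARNP panels are mostly below 0, with TIPIN at -0.78 and TIMELESS at -0.76, whereas in the SART1 and FIBP panels POLA1 stands out below 0 and most other bars are short.

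Targets that share a table were compared by the mean of their siRNAs. With SARNP knockdown 8 genes were lower and 22 higher than with DDX39A knockdown, while 53.64% of all genes differed either way. RFC3 was 0.44 ± 0.043 (adjusted p = 3.3e-11) and RRM2 0.43 ± 0.031 (adjusted p = 1.1e-14) apart, both higher in SARNP cells. POLD3 was -0.49 ± 0.047 (adjusted p = 1.9e-11) apart, lower in SARNP cells. Such means hide splits between siRNAs, and their SE measures the spread of libraries, not of siRNAs. Against the controls, RRM2 differed by -0.16 and -0.90 with DDX39A siRNA 1 and 4. With SARNP siRNA 3 and 9 it differed by -0.051 and -0.16. RFC3 differed by -0.14 and -0.74 with DDX39A siRNA 1 and 4, and by -0.012 and 0.010 with SARNP siRNA 3 and 9. With TMEM259 knockdown 7 genes were lower and 18 higher than with FIBP knockdown, and 37.10% of all genes differed. UNG, at 0.28 ± 0.041 (adjusted p = 4.2e-07), LIG1, at 0.23 ± 0.050 (adjusted p = 0.0002), and TK1, at 0.22 ± 0.029 (adjusted p = 4.4e-08), were higher in TMEM259 cells. DTL, at -0.17 ± 0.037 (adjusted p = 0.00032), was lower in them. SART1 has no other target in its table, so it was compared with none.

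Genes next to these in the cell cycle were followed through 4 further lists, which hold none of the 53. Of 41 other replication and nucleotide genes, 21 were lower and 9 higher with SART1 siRNA 4 (28.22% and 29.49% of all genes), and 20 and 12 with siRNA 6 (30.46% and 32.49%). The largest falls common to both SART1 siRNAs were CHTF18, a subunit of an alternative clamp loader, by -0.66 ± 0.084 with siRNA 4 (adjusted p = 4.7e-07) and -0.86 ± 0.084 with siRNA 6 (adjusted p = 4.9e-09), and RECQL4, a helicase of replication initiation, by -0.55 ± 0.051 with siRNA 4 (adjusted p = 2.4e-09) and -0.76 ± 0.051 with siRNA 6 (adjusted p = 9.6e-12). DNMT1, the maintenance DNA methyltransferase that UHRF1 recruits, fell in the same cells, by -0.50 ± 0.041 with siRNA 4 (adjusted p = 3.2e-10) and -0.56 ± 0.041 with siRNA 6 (adjusted p = 5.1e-11). DDX39A siRNA 4 lowered 20 of the 41 and raised 2 (23.75% and 25.25% of all genes), while siRNA 1 lowered 11 and raised 5 (16.12% and 17.07%). With SARNP siRNA 9 the counts were 14 lower and 12 higher, and with siRNA 3 they were 9 and 9, near the shares of all genes (29.38% and 29.04% with siRNA 9, 21.01% and 20.33% with siRNA 3). DONSON, a helicase assembly factor, was at -0.27 ± 0.054 with siRNA 3 (adjusted p = 0.00013) and -1.19 ± 0.054 with siRNA 9 (adjusted p = 1.6e-20).

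FIBP siRNA 6 and 7 lowered 8 and 12 of those 41 genes (11.82% and 17.46% of all genes) and raised 3 and 4 (10.78% and 16.60%). SLBP, which binds histone mRNA, was at -0.18 ± 0.043 with siRNA 6 (adjusted p = 0.0012) and -0.27 ± 0.043 with siRNA 7 (adjusted p = 2.6e-06). TMEM259 siRNA 5 and 6 lowered 10 and 4 (11.98% and 10.03% of all genes) and raised 2 and 3 (10.83% and 9.36%). Among 26 tested genes of G1/S control, 10 were lower and 9 higher with SART1 siRNA 4 (28.22% and 29.49% of all genes), and 12 and 5 with siRNA 6 (30.46% and 32.49%). E2F1, which drives S-phase genes, was lower in both, at -0.87 ± 0.046 with siRNA 4 (adjusted p = 1.7e-13) and -0.95 ± 0.046 with siRNA 6 (adjusted p = 4.1e-14). CCNE1, the cyclin that opens S phase, passed the test as lower with both siRNAs of 4 targets, SART1 (-0.59 ± 0.083 with siRNA 4, adjusted p = 1.7e-06, and -0.74 ± 0.083 with siRNA 6, adjusted p = 5e-08), DDX39A (-0.90 ± 0.104 with siRNA 1, adjusted p = 9.1e-09, and -0.65 ± 0.104 with siRNA 4, adjusted p = 2.4e-06), FIBP (-0.71 ± 0.115 with siRNA 6, adjusted p = 5.9e-06, and -0.36 ± 0.115 with siRNA 7, adjusted p = 0.013) and TMEM259 (-0.45 ± 0.115 with siRNA 5, adjusted p = 0.0032, and -0.60 ± 0.115 with siRNA 6, adjusted p = 0.00015). After SARNP knockdown CDKN1A, the cyclin kinase inhibitor, was at 1.23 ± 0.070 with siRNA 3 (adjusted p = 4.1e-17) and 0.61 ± 0.070 with siRNA 9 (adjusted p = 2.1e-09), and CDK6, a G1 kinase, was at -0.48 ± 0.046 with siRNA 3 (adjusted p = 5.2e-11) and -0.87 ± 0.046 with siRNA 9 (adjusted p = 1.1e-18). In the table of DDX39A and SARNP, the list had 7 lower and 3 higher for DDX39A siRNA 1 (16.12% and 17.07% of all genes), 11 and 6 for DDX39A siRNA 4 (23.75% and 25.25%), 11 and 8 for SARNP siRNA 3 (21.01% and 20.33%) and 13 and 9 for SARNP siRNA 9 (29.38% and 29.04%). In that of FIBP and TMEM259, it had 9 and 2 for FIBP siRNA 6 (11.82% and 10.78% of all genes), 12 and 7 for FIBP siRNA 7 (17.46% and 16.60%), 9 and 3 for TMEM259 siRNA 5 (11.98% and 10.83%) and 9 and 1 for TMEM259 siRNA 6 (10.03% and 9.36%).

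Most of 25 mitotic genes were lower with 3 of the siRNAs, and most were higher with 1. With DDX39A siRNA 4, 22 were lower and 1 higher (median log2 difference -0.31), against 23.75% and 25.25% of all genes. With SARNP siRNA 9 the counts were 19 and 2 (-0.18), against 29.38% and 29.04% of all genes. With FIBP siRNA 7 they were 20 and 1 (-0.21), against 17.46% and 16.60%. With SART1 siRNA 6, 5 mitotic genes were lower and 16 higher (0.13), against 30.46% and 32.49% of all genes. With SARNP siRNA 3, 2 were lower and 12 higher (0.12), against 21.01% and 20.33%. The other counts were 6 lower and 9 higher for SART1 siRNA 4 (28.22% and 29.49% of all genes), 4 and 5 for DDX39A siRNA 1 (16.12% and 17.07%), 5 and 1 for FIBP siRNA 6 (11.82% and 10.78%), 3 and 2 for TMEM259 siRNA 5 (11.98% and 10.83%), and 3 and 4 for TMEM259 siRNA 6 (10.03% and 9.36%). TTK, a spindle checkpoint kinase, was at 0.43 ± 0.041 with siRNA 4 (adjusted p = 4e-09) and 0.66 ± 0.041 with siRNA 6 (adjusted p = 3.2e-12) in SART1 knockdown cells. KIF20A of the same list fell there, by -0.40 ± 0.039 with siRNA 4 (adjusted p = 6.4e-09) and -0.36 ± 0.039 with siRNA 6 (adjusted p = 3.8e-08). With SARNP knockdown AURKA fell, by -0.84 ± 0.043 with siRNA 3 (adjusted p = 1.5e-18) and -0.19 ± 0.043 with siRNA 9 (adjusted p = 0.00031). AURKB rose, by 0.22 ± 0.052 with siRNA 3 (adjusted p = 0.00065) and 0.22 ± 0.052 with siRNA 9 (adjusted p = 0.00046). KIF23, a kinesin of cell division, was at -0.69 ± 0.049 with siRNA 6 (adjusted p = 2.3e-15) and -0.51 ± 0.049 with siRNA 7 (adjusted p = 1.4e-11) in FIBP knockdown cells. Of 9 fork checkpoint genes, 1 was lower and 4 higher with SART1 siRNA 4 (28.22% and 29.49% of all genes), and 2 and 3 with SART1 siRNA 6 (30.46% and 32.49%). With FIBP siRNA 6 the counts were 2 and 1 (11.82% and 10.78%), and with FIBP siRNA 7 they were 3 and 0 (17.46% and 16.60%). For the same genes the counts were 0 and 1 with DDX39A siRNA 1 (16.12% and 17.07% of all genes) and 3 and 0 with DDX39A siRNA 4 (23.75% and 25.25%). They were 1 and 1 with SARNP siRNA 3 (21.01% and 20.33%) and 2 and 1 with SARNP siRNA 9 (29.38% and 29.04%). With TMEM259 siRNA 5 they were 0 and 1 (11.98% and 10.83%), and with TMEM259 siRNA 6 0 and 0 (10.03% and 9.36%). HUS1, a clamp of the damage response, was higher with both SART1 siRNAs, at 0.51 ± 0.070 with siRNA 4 (adjusted p = 1.1e-06) and 0.80 ± 0.070 with siRNA 6 (adjusted p = 8.4e-10), and WEE1, a kinase that restrains CDK1, lower with both FIBP siRNAs, at -0.21 ± 0.068 with siRNA 6 (adjusted p = 0.021) and -0.17 ± 0.068 with siRNA 7 (adjusted p = 0.046).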

How the data were processed

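Poly(A) RNA of 26 libraries was read with a directional kit in pairs of 42 bases, per the labels' protocols. STAR, Picard, HTSeq, DESeq2 and hg19 are named in the submitters' processing notes, without versions or roles. The authors deposited 3 tables of a signal per gene, a read count divided by 1 size factor per library, so each value is a normalized read count. Dividing each library by the value of 1 read gave whole numbers throughout (tolerance 0.0001). Entries that name no gene were kept apart, namely reads without a feature (5.66% to 7.04% of all reads listed in a library), ambiguous reads (1.33% to 1.65%) and, where listed, reads aligned more than once (20.6% to 22.1%). Nothing in the sources used here states whether counting used strand.

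The normalized counts were tested with limma 3.58.1 (R 4.3.3) on log2(value + 1), over genes with a mean of at least 10 in a table. All groups of a table entered 1 fit with a mean-variance trend, with residual degrees of freedom of 3, 5 and 5 and prior degrees of freedom of 20.5, 31.8 and 38.4 for the SART1, the DDX39A and SARNP, and the FIBP and TMEM259 tables. P-values were Benjamini-Hochberg adjusted over all genes tested in a table, namely 11823, 11673 and 11768. Fold changes of low genes are understated on this scale. The fit was also run on simulated counts, in which far fewer genes changed, by known amounts and in a single group. That run does not test the calls reported here, and its outcome is not given.

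The recovered reads were also tested with DESeq2 1.42.0 and with edgeR 4.0.16 (TMM). The other alternatives were quantile normalization, a pseudocount of 5, a minimum mean of 50 or none, fits without the groups not compared, a block for the replicate number, and each library left out in turn. The members and lists were chosen with earlier results of these data known. Full statistics went, for each target, to the up to 6 genes in each direction called by both siRNAs with the largest smaller change, and to genes called in opposite directions. Other genes named with their values complete a complex, or were chosen after their values were seen. From the further lists, up to 3 genes a target were named by the same rule or chosen from those after their values were seen. Groups were taken from the sample titles, and labels that misspell SARNP and FIBP were read as these genes. Promoters and exon overlaps come from GRCh38 and not from the build of the counts, so only their letters and gene names were used.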

Additional observations from a re-analysis of the deposited data

Results flagged for a closer look

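For 8 genes the siRNAs of 1 target moved the mRNA in opposite directions from the controls, and the difference between the siRNAs passed limma's test adjusted over all genes. With DDX39A siRNA 4 minus siRNA 1, CDC6 differed by -0.66 on the log2 scale (adjusted p = 4.8e-13) and ORC3 by 0.34 (adjusted p = 1.8e-05). With SARNP siRNA 9 minus siRNA 3, TIMELESS differed by -0.76 (adjusted p = 1.3e-14), MCM6 by -0.56 (adjusted p = 4.5e-13), MCM5 by -0.53 (adjusted p = 3.9e-12), RFC4 by -0.46 (adjusted p = 3.5e-09) and TK1 by -0.39 (adjusted p = 1.3e-08). With FIBP siRNA 7 minus siRNA 6, POLA1 differed by -0.62 (adjusted p = 2.1e-12). In each case both libraries of 1 siRNA lay above both controls and both libraries of the other siRNA below them. For 6 of the 8 genes a call against the controls was lost in DESeq2 and when single libraries were left out, namely CDC6 with DDX39A siRNA 1, ORC3 with both DDX39A siRNAs, MCM5, RFC4 and TK1 with SARNP siRNA 3, and POLA1 with FIBP siRNA 6. The calls of MCM6 and TIMELESS held under every alternative run.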

How the results depend on the processing

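None of the alternatives run turned the direction of a gene with full statistics. Medians over the 53 genes moved by more than the spread between libraries in 21 of 120 alternatives, and that of SARNP siRNA 3 changed sign, at 0.0076 with quantile normalization and -0.016 as reported. Counts of genes called by both siRNAs stayed within 1.5 times the reported count in 125 of 140 alternatives, and counts for 1 siRNA in 208 of 240. The genes with full statistics kept their calls in 927 of 1008, and 81 calls were lost, 17 of them without control replicate 1, 17 without control replicate 2, 12 in DESeq2 and 5 with quantile normalization. The number higher with both SARNP siRNAs was 0 as reported, 1 with a mean of at least 50, 2 with quantile normalization and 1 with only the compared groups in the fit. When 1 library was left out, the number lower with both siRNAs was 27 to 32 for SART1, 9 to 12 for DDX39A, 5 to 9 for SARNP, 8 to 14 for FIBP and 2 to 7 for TMEM259, and the number higher with both DDX39A siRNAs was 0 to 2. The lone library then left in a group is assumed to vary like the others. Same-numbered libraries did not deviate together (correlations of -0.0602 to 0.0546 over 23 pairs of groups). No pairing by number was seen, but this cannot show whether same-numbered libraries were made together. With the replicate number as a replicate block, the counts lower and higher with both siRNAs were 33 and 4 for SART1, 12 and 1 for DDX39A, 8 and 0 for SARNP, 14 and 0 for FIBP, and 7 and 0 for TMEM259. Quantile normalization gave 40 lower and 2 higher for SART1. Of the single genes, POLA1 with FIBP siRNA 6 (adjusted p = 0.058) and POLD3 with TMEM259 siRNA 5 (0.053) were no longer called under the block. The causes were not tested. With 2 libraries a group, a difference that missed the threshold is not shown to be absent.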
